A study of Mus musculus with 38 samples.

Results

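The Fos locus was described in cultured mouse cortical neurons, as the gene with 100 kb to each side. In genome build mm9 the gene lies on the plus strand of chromosome 12, from 86814851 to 86818220 (3370 bp). All peaks and positions of every deposited list that touch chr12:86714851-86918220 were taken. This gave 124 of the 317341 entries in the lists, namely 102 peaks of AP-1 proteins, 14 peaks of H3K27ac, 4 enhancer positions and 4 positions of a combined c-Fos list. The series has 38 samples, of which 22 are AP-1 libraries, 4 H3K27ac libraries and 12 input libraries. Cortices of E16.5 C57BL/6 embryos gave the neurons, which had been in culture for 7 days. They were silenced overnight with 1 µM TTX, which blocks sodium channels, and 100 µM DL-AP5, which blocks NMDA receptors. The unstimulated neurons stayed silenced, and the KCl neurons were depolarised for 2 h. H3K27ac lists merge biological samples 1 and 2. In samples 3 and 4, whose labels name no shRNA, c-Fos was mapped with antibodies sc52 and sc7202 and FosB with sc48. JunB was mapped with sc46 in sample 4 alone. Samples 5 and 6 were infected with control shRNA, c-Fos shRNA or FosB shRNA and all received KCl, so they have no unstimulated partner. The lists give peaks and no gene expression, so the neuronal identity of the cultures could not be checked. They come from whole cultures, in which a mark in few cells and a weak mark in many cells cannot be told apart.

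Fos is an immediate early gene: its transcription starts within minutes of neuronal activity and needs no new protein. Its product c-Fos joins a Jun protein to form the dimer AP-1, which binds DNA at promoters and enhancers. FosB is another Fos family protein, and JunB is one of the Jun partners. Acetylation of histone H3 at lysine 27 (H3K27ac) marks active promoters and enhancers. CBP is an acetyltransferase recruited to enhancers, where H3K4me1 is a typical mark. In neurons, Fos is known to be served by several enhancers that lie on both sides of the gene. The nearest protein-coding genes in RefSeq (assembly GRCm38.p6) are Tmed10, a cargo receptor of the secretory pathway, on the upstream side and Jdp2, a repressor that pairs with Jun proteins, on the downstream side.

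The promoter is shown because AP-1 peaks covered the start site in 11 of 22 AP-1 libraries. The sequence runs 5′ to 3′ on the plus strand, from 250 bases before the start site to 50 bases from it on, as given by RefSeq for build GRCm38.p6 at chr12:85473640-85473939. These coordinates belong to that build and not to the mm9 coordinates of the peaks. Capitals mark TGACG, the core of the cAMP response element (CRE) bound by CREB.
Fos promoter: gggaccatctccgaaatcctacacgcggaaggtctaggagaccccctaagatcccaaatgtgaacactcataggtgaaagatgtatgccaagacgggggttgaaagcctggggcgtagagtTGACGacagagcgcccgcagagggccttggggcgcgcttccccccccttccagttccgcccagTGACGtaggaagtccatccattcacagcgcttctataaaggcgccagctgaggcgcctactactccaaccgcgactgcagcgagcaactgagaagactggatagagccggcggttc
The CRE core was found at 2 places, which begin 129 and 66 bases before the start site, both on the plus strand. Both strands were searched, and 20.8% of the 32851 RefSeq promoters of the same length hold it. The AP-1 site TGANTCA (7.81% of promoters) and the CArG box, the element of the serum response factor (1.63% of promoters), were not found in the 300 bases shown, so no motifs overlap. Sequence farther upstream was not searched, so their absence here does not extend to the rest of the promoter or to the enhancers.

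H3K27ac was listed over the Fos start site in both conditions, and after KCl the peak reached through nearly the whole gene. Without stimulation it ran from 86812081 to 86815758, 3678 bp that covered 26.9% of the gene. After KCl it ran from 86811824 to 86818031, 6208 bp that covered 94.4% of the gene. Upstream of the start site its reach was 2.77 kb without stimulation and 3.03 kb after KCl, and downstream 0.907 kb and 3.18 kb. The added length therefore lay mainly over the transcribed part. Each score is the authors' own and rises with the negative log10 of the peak's p-value, so it describes a peak within its list. The start-site peak scored 348, above or level with 58.0% of the 30239 unstimulated peaks. It scored 2797 after KCl, above or level with 93.5% of the 29418 KCl peaks.

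The window held 6 H3K27ac peaks without stimulation and 8 after KCl, which covered 15847 and 24854 bp of it. Each of the 6 unstimulated peaks overlapped a KCl peak by at least 1 bp (over the genome, 20.2% of unstimulated peaks overlap none). Of the 8 KCl peaks 2 had no unstimulated partner, 25% against 18.1% of KCl peaks over the genome, which is not far from the background. These lay 70.8 kb and 98.3 kb downstream, with scores of 81.0 and 121. The pair of lists has no replicates, so the 2 additional peaks carry no error and were not tested.

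Besides the start site, 3 regions in the authors' lists of distal H3K27ac peaks had high scores after KCl. A further high-scoring peak, at the upstream edge of the window, is not in those distal lists and is described below. The first, 37.2 kb upstream, was 3000 bp wide without stimulation (score 308) and 3725 bp after KCl (score 2235). The second, 18.5 kb upstream, was 2820 bp wide (score 616) and 4072 bp after KCl (score 2308). The third, 12.2 kb downstream, was 2200 bp wide (score 267) and 3472 bp after KCl (score 1688). In the KCl list these 3 peaks scored above or level with 90.8%, 91.2% and 87.0% of all peaks. In the unstimulated list the corresponding shares were 54.9%, 72.3% and 51.0%. Each share describes a peak within its own list, and shares or scores of the separately called lists are not a measure of change.

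The other H3K27ac peaks listed in both conditions lay farther from the gene. The peak at the upstream edge of the window, centred 99.3 kb from the start site and reaching 780 bp past the edge, was 2864 and 2906 bp wide, and its scores of 1612 and 2170 placed it above or level with 90.1% and 90.5% of the lists. Like the start-site peak, it is absent from the authors' distal lists of both conditions. The peak centred 50.8 kb downstream without stimulation was 2065 bp wide with a score of 146, and after KCl it was 1840 bp wide with a score of 118. KCl widths were 1.24, 1.44, 1.69 and 1.58 times the unstimulated ones at 37 kb upstream, 18 kb upstream, the start site and 12 kb downstream, against 1.01 and 0.891 at the outer peaks. Over the genome, 23347 peaks of the lists overlapped 1 to 1, their median ratio was 1.03, and 58.3% were wider after KCl. In the window 5 of 6 were wider, with a median ratio of 1.34. The start-site ratio was reached or exceeded by 2.27% of all pairs, the ratio 12 kb downstream by 3.30%, the ratio 18 kb upstream by 5.27% and the ratio 37 kb upstream by 14.0%. The ratios of the outer peaks were reached or exceeded by 54.4% and 80.3%. Widths come from merged samples and have no replicate error.

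**Figure D1:**
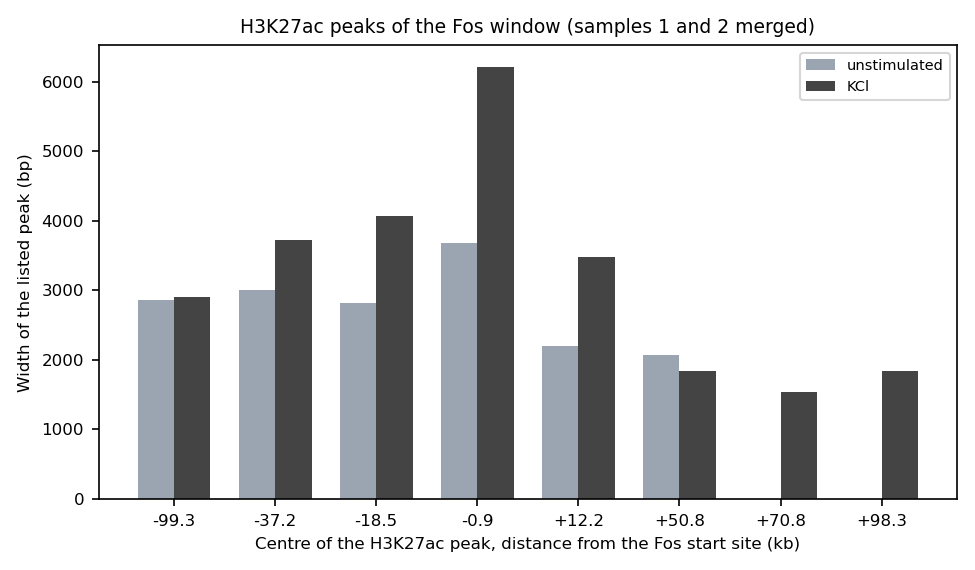
Width in bp of each H3K27ac peak of the Fos window (bars), by the distance of its centre from the start site in kb (the unstimulated peak where both conditions have one), unstimulated in grey and KCl in black, with biological samples 1 and 2 merged and no replicate error. The start-site peak widened from 3678 to 6208 bp, and the peaks 70.8 and 98.3 kb downstream were listed after KCl alone.

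The deposited list of 11830 distal positions with CBP and H3K4me1 held 4 positions in the window, and 1 of them carried a class. This list is labelled as taken from Kim et al. The series has no CBP or H3K4me1 library, so these marks were not mapped in its samples. Position 86777220, 37.6 kb upstream, was in the class of increasing H3K27ac (1 of 4 positions, 25%, against 12.4% of all positions). It lay inside the H3K27ac peak of both conditions (1 of 4 positions, against 35.8% of all). The other 3 positions were in none of the 4 classes (58.6% of all positions are in none). Position 86809030, 5.82 kb upstream, lay in no H3K27ac peak of either condition, and neither did position 86910790, 95.9 kb downstream (2 of 4 positions, against 44.6% of all). Position 86912310, 97.5 kb downstream, lay in a KCl peak alone (1 of 4, against 12.5%). The start site and the regions 18 kb upstream and 12 kb downstream, which had 3 of the 4 widest H3K27ac peaks after KCl, held no CBP and H3K4me1 position in this list of distal positions. Of the 4 positions 3 had a combined c-Fos position within 500 bp, at 1, 25 and 79 bp (26.3% of all positions have one), and the position of the increasing class had none nearer than 31811 bp.

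**Figure D2:**
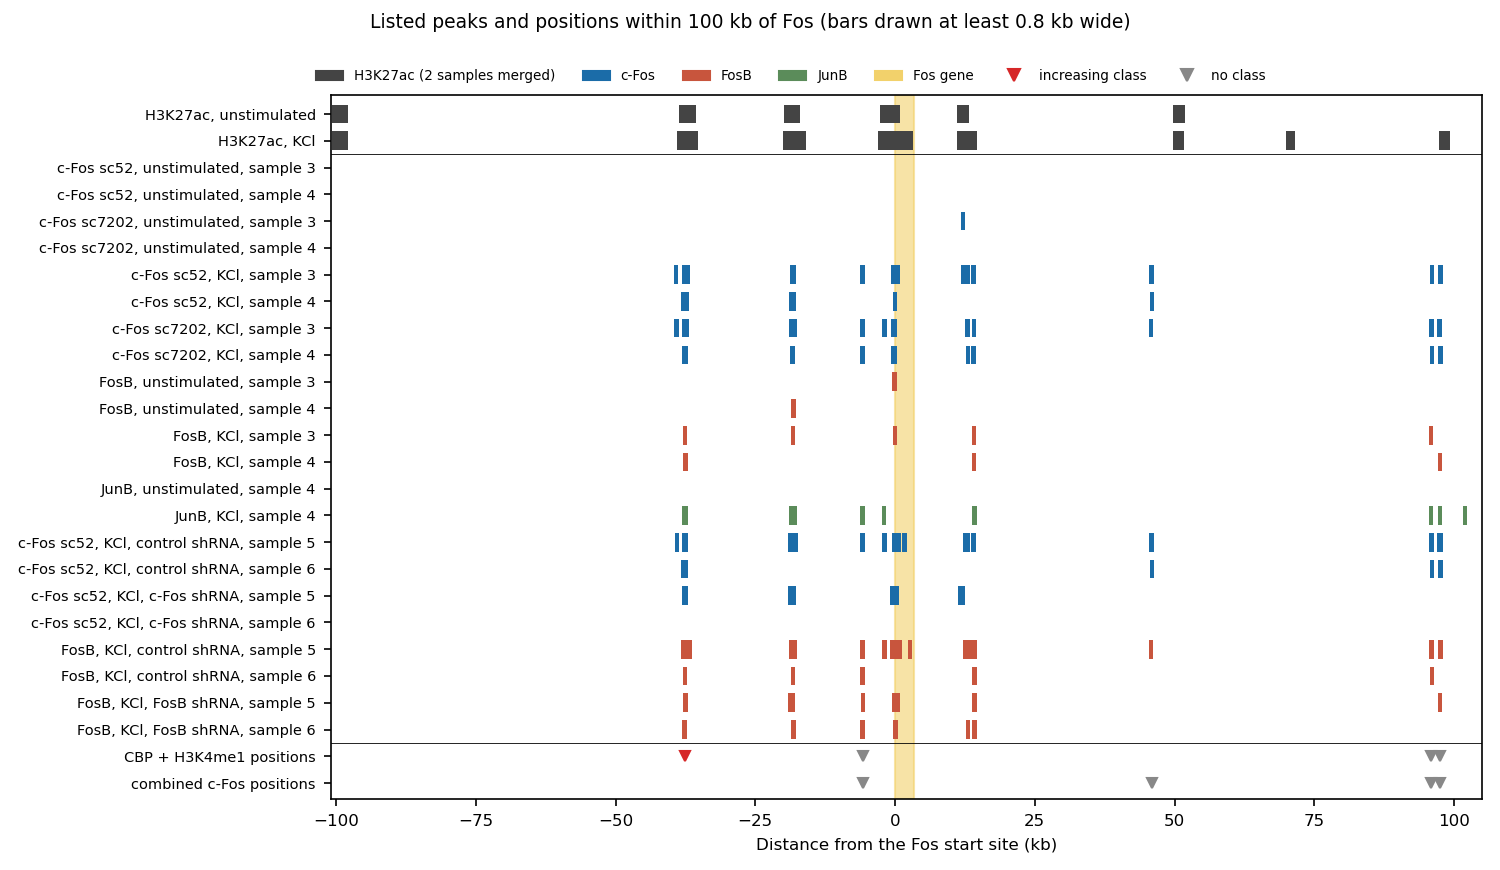
Map of the window, with distance from the Fos start site in kb on the x axis, 1 row per list, bars for listed peaks (drawn at least 0.8 kb wide), triangles for listed positions (red for the increasing class, grey for no class) and the gene shaded. After KCl the c-Fos, FosB and JunB bars stack in columns 37.6, 18.3 and 5.82 kb upstream and near 14.0, 96.0 and 97.5 kb downstream. The unstimulated AP-1 rows hold 3 bars in all.

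c-Fos peaks around its own gene were almost all listed after depolarisation. Without stimulation, the sc52 lists of samples 3 and 4 held 0 and 0 peaks in the window and the sc7202 lists held 1 and 0. After KCl, the sc52 lists held 11 and 4 peaks and the sc7202 lists 11 and 8. The groups did not overlap, and the lowest KCl library was the short sc52 list of sample 4. The means were 0.25 ± 0.5 and 8.5 ± 3.32 peaks (SD, n = 4 libraries each), a difference of 8.25 (exact two-sided permutation test, p = 0.0286, adjusted over 2 tests p = 0.0286), the smallest p that 4 against 4 libraries allow. The 4 libraries of a condition are 2 antibodies on 2 biological samples, so they are not 4 independent replicates. Over the means of the antibodies per biological sample (2 against 2) the exact permutation p was 0.333 for the same difference, the smallest that design allows. Paired within biological sample and antibody (the replicate block), the mean difference is 8.25 by construction. It was in the same direction in 4 of 4 pairs, with an exact sign-flip p of 0.125, the smallest that 4 pairs allow. The result also depended on list length. Per 10000 peaks of the list, the KCl libraries held 4.92, 5.88, 3.81 and 4.92 (sc52 of samples 3 and 4, then sc7202) against 0, 0, 5.65 and 0, a difference of 3.47 (exact permutation p = 0.114), and with every list cut to its 557 best-scoring peaks it was 0.5 (exact permutation p = 0.429). With peaks scoring at least 100 alone it was 4.25 (exact permutation p = 0.143).

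**Figure D3:**
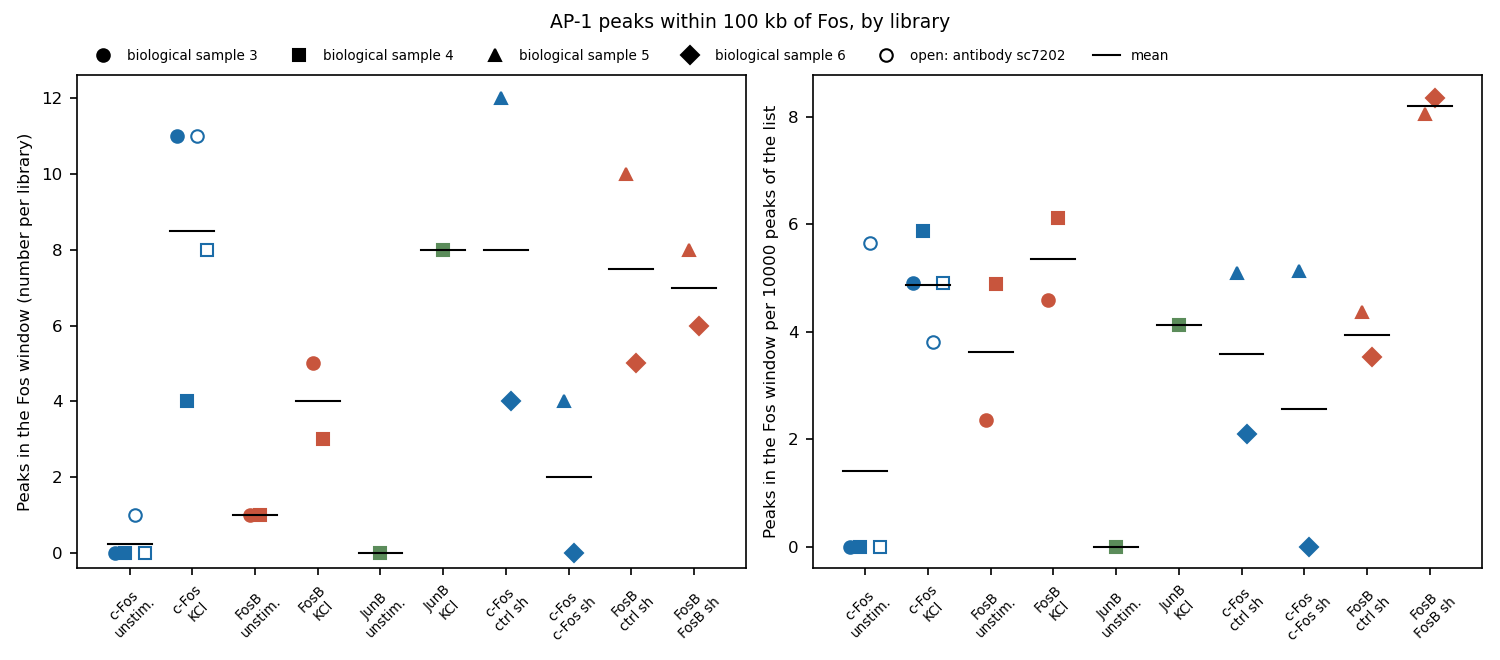
Peaks in the Fos window for each AP-1 library (points, shaped by biological sample, open for sc7202) with the group mean (line), as a number on the left and per 10000 peaks of the library's list on the right. On the left all 4 KCl c-Fos libraries lie above the unstimulated ones, while on the right the unstimulated sc7202 library of sample 3 (5.65) lies among the KCl libraries.

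All 4 CBP and H3K4me1 positions gained a c-Fos peak after KCl. Each lay inside a c-Fos peak of at least 3 of the 4 KCl lists and of no unstimulated list, which held for 25.6% of all positions. For at least 1 of the 4 KCl lists the share of all positions was 51.2%. The position 37.6 kb upstream lay in all 4 KCl lists (1 of 4 positions, against 11.4% of all). The KCl libraries covered 4, 1, 4 and 4 of the positions (sc52 of samples 3 and 4, then sc7202 of samples 3 and 4) and the unstimulated libraries covered none. The mean was 3.25 ± 1.5 against 0 ± 0 (SD, n = 4 each; exact two-sided permutation p = 0.0286, adjusted over 2 tests p = 0.0286). Over means per biological sample the exact permutation p was 0.333. With the replicate block the exact sign-flip p was 0.125, and with lists cut to 557 peaks the difference was 0.25 (exact permutation p = 1). With peaks scoring at least 100 alone it was 2.25 (exact permutation p = 0.143).

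Peaks of the 22 AP-1 lists that overlapped were joined into 13 sites, of which 10 had a peak in at least 2 libraries and 3 in 1. Of the 10 sites, 6 touched an unstimulated H3K27ac peak (35.1% of the 37545 such sites over the genome), 7 touched a peak of either condition (41.8%) and 3 touched none (58.2%). By single peaks, 54 of the 102 AP-1 peaks overlapped unstimulated H3K27ac (35.8% of all AP-1 peaks), 76 overlapped H3K27ac after KCl (40.8%) and 26 overlapped neither (56.5%). Peaks of different libraries share sites and are not independent. Of the 8 KCl H3K27ac peaks, 5 overlapped a c-Fos peak of at least 1 of the 4 KCl lists (43.5% over the genome) and 3 overlapped one in all 4 (5.84%). Those 3 were the peaks over the start site and 37 and 18 kb upstream. The peaks 99.3 kb upstream and 50.7 and 70.8 kb downstream overlapped no AP-1 peak.

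The site 37.6 kb upstream was the only one with a c-Fos peak in all 6 KCl lists without c-Fos shRNA. A peak was listed there in 14 of the 22 libraries, and its standing is described by the share of the list that scored at or below it. With sc52 its c-Fos peak scored 516 and 69.7 in samples 3 and 4 (97.5% and 43.1% of the list at or below it). With sc7202 it scored 768 and 254 (98.8% and 93.9%). With control shRNA it scored 383 and 180 in samples 5 and 6 (95.2% and 83.9%). The sc52 list of sample 4 was the one in which this peak stood lowest, and in the other 13 libraries the share was 75.9% to 99.5%. The FosB peak scored 304 and 199 after KCl and 446 and 432 with control shRNA, with 92.9% to 98.0% of each list at or below it. The JunB peak scored 229 (90.8%). Unstimulated lists of all 3 proteins held no peak there, and all 14 peaks overlapped H3K27ac that was already listed without stimulation. A smaller c-Fos site 39.1 kb upstream had a peak in 3 of 6 KCl lists, with scores of 57.1, 70.5 and 65.5.

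The start site was bound in most KCl c-Fos lists, with scores that varied widely. The c-Fos peak over it scored 731 and 57.5 with sc52 in samples 3 and 4 and 132 and 106 with sc7202. In sample 3 the sc52 peak was thus near the top of its list (98.8% at or below) and the sc7202 peak was not (70.4%). In sample 4 the sc7202 peak stood at 67.2% and the sc52 peak lower. With control shRNA it scored 532 in sample 5 and was not listed in sample 6, whose list held 19131 peaks. FosB was listed there without stimulation in sample 3, as a peak of 206 bp with a score of 60.2. After KCl the FosB peak of sample 3 scored 415 and sample 4 had none. With control shRNA it scored 456 in sample 5, and sample 6 again had none. JunB had no peak over the start site in either condition, but a KCl peak in a separate site centred 1.93 kb upstream (score 56.3). That site was also listed in 2 of 6 KCl c-Fos lists (65.1 in sc7202 of sample 3 and 60.8 with control shRNA of sample 5) and in 1 of 4 KCl FosB lists (76.1).

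**Figure D4:**
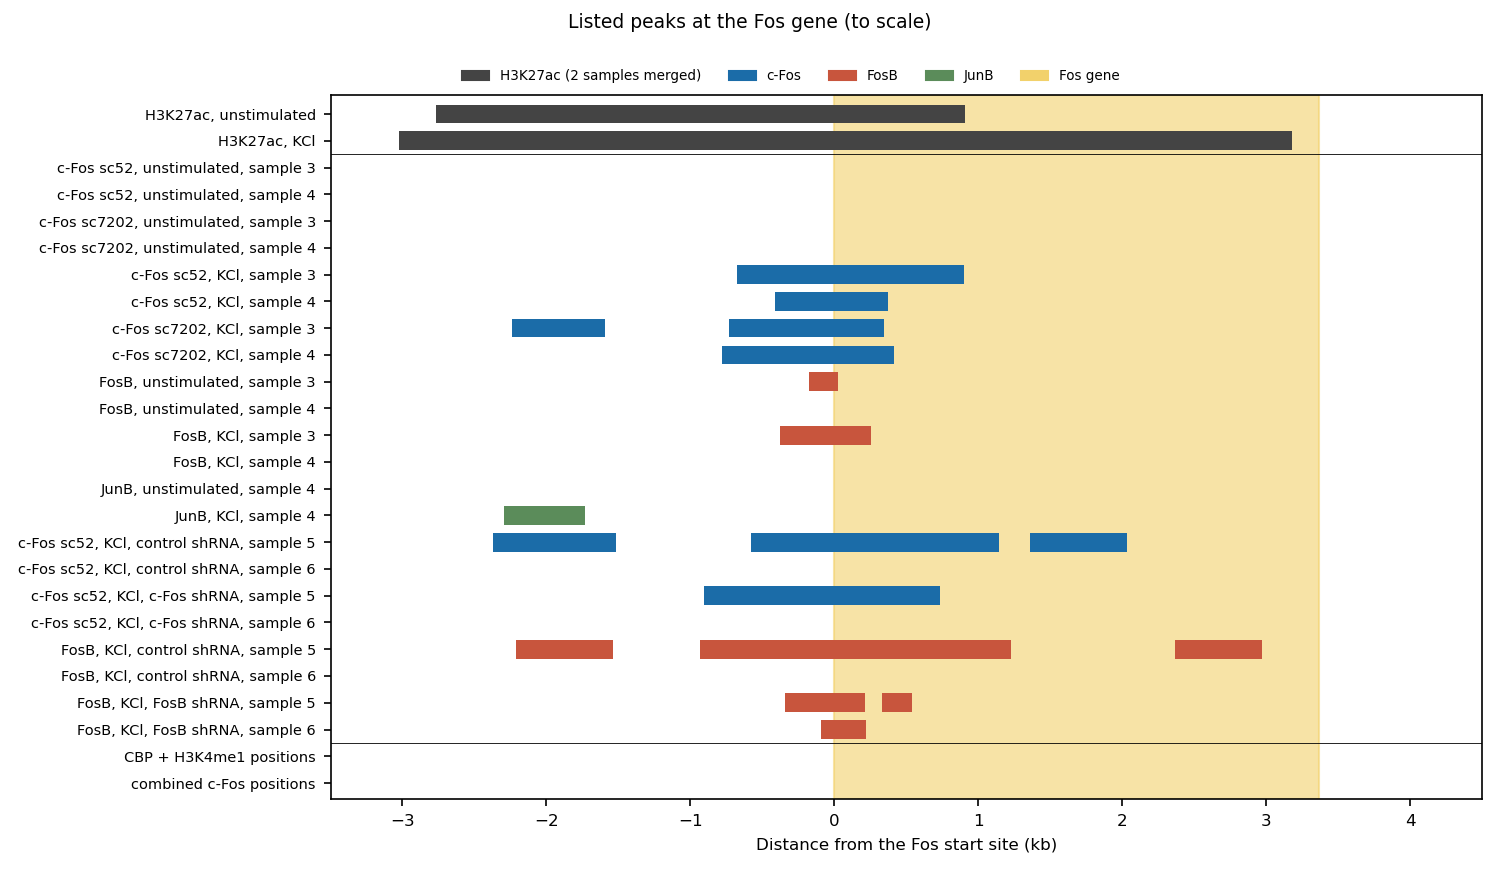
Listed peaks at the Fos gene, to scale, with distance from the start site in kb on the x axis, 1 row per list and the gene shaded. The KCl H3K27ac bar reaches 3.18 kb into the gene against 0.907 kb without stimulation, and the start site lies under AP-1 bars in 11 of 22 libraries.

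The site 18.3 kb upstream had c-Fos peaks in 5 of 6 KCl lists. They scored 236 and 72.0 with sc52, 256 and 89.2 with sc7202 and 184 with control shRNA of sample 5, and sample 6 had none. FosB was listed there without stimulation in sample 4 (score 60.7), after KCl in sample 3 (173) but not in sample 4, and with control shRNA in both samples (395 and 102). JunB scored 175. This was 1 of 3 sites with an AP-1 peak in an unstimulated list, the others being the start site and the region 12 kb downstream, and each was in 1 unstimulated list alone.

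Downstream of the gene, overlapping peaks formed 1 region from 11.3 to 14.7 kb, with 19 peaks in 13 libraries. All 19 overlapped the KCl H3K27ac peak, and 10 of them lay outside the unstimulated one, which ended 13.3 kb downstream. The KCl H3K27ac peak reached 14.6 kb. The peaks outside were those centred 14.0 to 14.2 kb downstream. There c-Fos scored 90.3 with sc52 of sample 3, 199 and 151 with sc7202 of samples 3 and 4 and 71.8 with control shRNA of sample 5. FosB scored 135 and 97.7 after KCl and 141 with control shRNA of sample 6, and JunB 61.1. In sample 5 with control shRNA, FosB had a single peak of 2630 bp over the whole region (score 425). The single unstimulated c-Fos peak of the window also lay in this region, 12.2 kb downstream, in the sc7202 list of sample 3 (score 63.2), and the KCl list of that antibody and sample had no peak that overlapped it. The sc52 KCl list of sample 3 had a c-Fos peak that overlapped it (score 68.7), as did that of sample 5 with control shRNA (65.5). The KCl c-Fos lists of sample 4, and of sample 6 with control shRNA, had none.

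The site 5.82 kb upstream and those near 45.9, 96.0 and 97.5 kb downstream each held a position of the combined c-Fos list, with scores of at most 257. At 5.82 kb upstream c-Fos scored 113 with sc52 of sample 3, 149 and 61.8 with sc7202 and 101 with control shRNA of sample 5. FosB had no peak there in samples 3 and 4 and scored 257 and 77.6 with control shRNA, and JunB scored 144. This site had no H3K27ac peak in either condition. At 45.9 kb downstream c-Fos was listed in 5 of 6 KCl lists with scores of 50.3 to 73.2, FosB in 1 of 4 (72.7) and JunB not at all, again without H3K27ac. At 96.0 kb downstream c-Fos was in 5 of 6 lists with scores of 62.0 to 181, also without H3K27ac. At 97.5 kb c-Fos was in 5 of 6 lists with scores of 73.7 to 210, and the H3K27ac peak listed after KCl alone overlapped the site in part. Across both of these sites FosB was listed in 1 KCl list each without shRNA, sample 3 at 96.0 kb and sample 4 at 97.5 kb, and JunB scored 58.2 and 91.6.

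**Figure D5:**
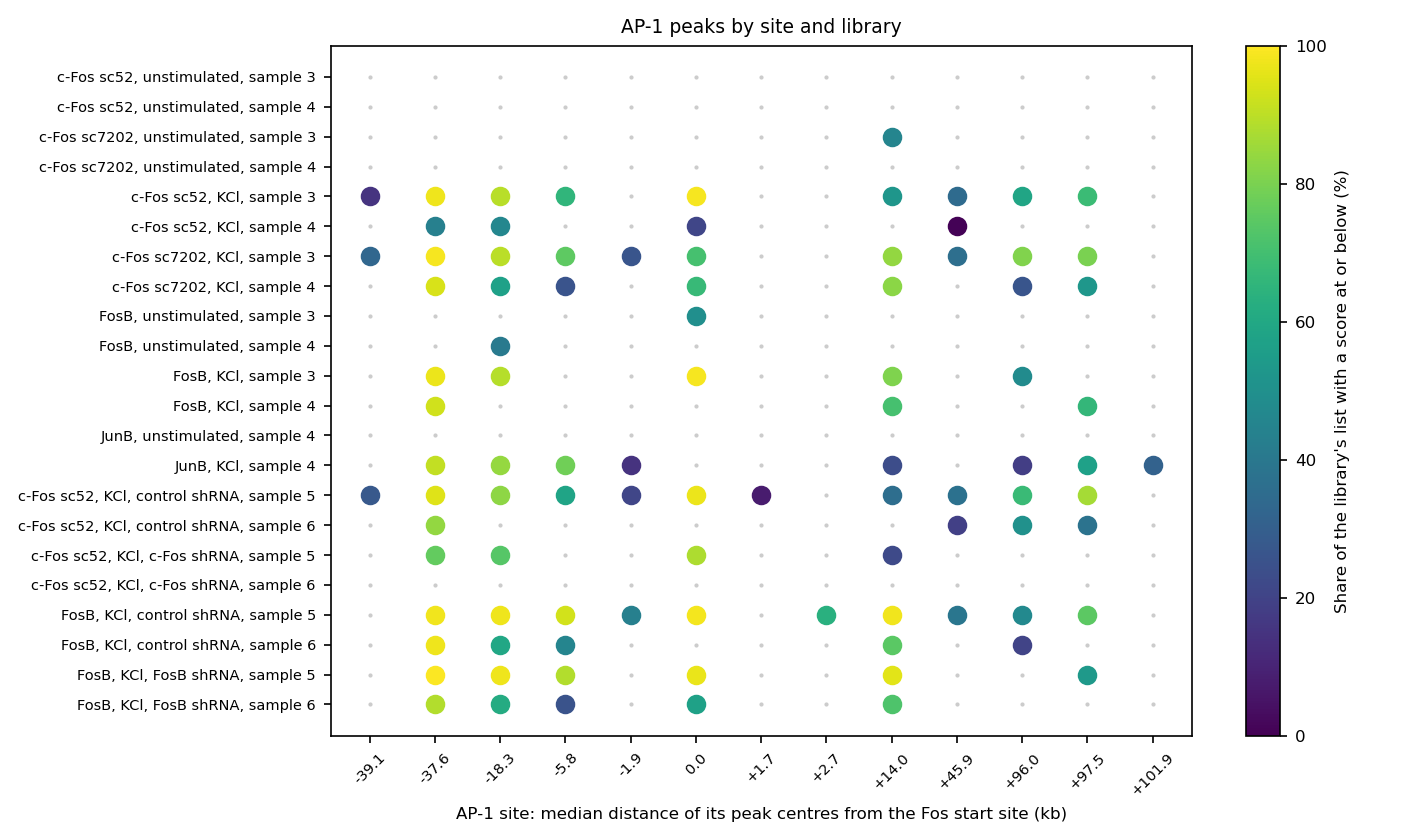
AP-1 sites of the window (columns, by the median distance of their peak centres from the start site in kb) in each of 22 libraries (rows). A filled circle is a listed peak, coloured by the share of the library's list with a score at or below it in percent, and a small dot is no listed peak. The column 37.6 kb upstream is filled in 14 libraries, and the unstimulated rows hold 3 circles.

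FosB and JunB lists also held more peaks of the window after KCl. FosB had 1 and 1 peaks without stimulation and 5 and 3 after KCl in samples 3 and 4, a difference of 3 in the mean. Groups of 2 cannot give an exact p under 0.33, so no test was made. Per 10000 peaks of the list, FosB had 2.36 and 4.90 without stimulation and 4.59 and 6.12 after KCl. JunB, with 1 library per condition, had 0 and 8 peaks. All 4 CBP and H3K4me1 positions lay in a JunB peak after KCl and not without stimulation (37.0% of all positions). For FosB, 1 of the 4, the position 37.6 kb upstream, lay in both KCl lists and in neither unstimulated list (5.18% of all). The KCl FosB lists of samples 3 and 4 held 10898 and 4899 peaks, with median widths of 208 and 187 bp. The KCl JunB list held 19346 peaks with a median width of 680 bp. Covered positions therefore do not compare the 2 proteins.

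With c-Fos shRNA, c-Fos peaks of the window numbered 4 in sample 5 and 0 in sample 6, against 12 and 4 with control shRNA. The difference in the mean was -6, in the same direction in both samples, and 2 against 2 libraries cannot go under an exact p of 0.33. The level of c-Fos left in these cultures was not measured here, and lists under c-Fos shRNA were shorter over the whole genome (7808 and 1793 peaks against 23578 and 19131). Per 10000 peaks of the list the difference was -1.03, with 5.12 and 0 against 5.09 and 2.09, and with lists of equal length it was -0.5 peaks. Of the control peaks, 4 of 12 in sample 5 overlapped a peak under c-Fos shRNA (22.5% over the genome) and 0 of 4 in sample 6 (5.45%). In sample 5 the peaks under c-Fos shRNA lay over the start site (score 345), 37.6 kb upstream (166), 18.3 kb upstream (150) and 11.9 kb downstream (60.3). Each touched H3K27ac of the unstimulated list, as did 35.8% of all peaks of the 22 AP-1 lists. The share among all peaks under c-Fos shRNA was not computed. The other 8 control peaks of sample 5 had no counterpart, and they lay 39.1, 5.82 and 1.93 kb upstream and 1.70, 14.1, 45.8, 96.0 and 97.5 kb downstream. Those 39.1 and 1.93 kb upstream also touched H3K27ac of the unstimulated list, so touching it did not separate the sites. In sample 6 the site 37.6 kb upstream was listed with control shRNA (180) and not with c-Fos shRNA. The start site and the site 18.3 kb upstream had no control peak in sample 6, so no loss could be seen there. Of the 4 CBP and H3K4me1 positions, 2 lay in a c-Fos peak of both control lists and of neither c-Fos shRNA list (21.8% of all positions), and 1, the position 37.6 kb upstream, lay in a peak of at least 1 c-Fos shRNA list (6.69%).

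The combined c-Fos list held no position at the sites that had a peak under c-Fos shRNA. Of the 10 named sites, 4 held a combined position and 4 had a peak under c-Fos shRNA in sample 5, and no site was in both sets. The sets are small, and the share of all combined positions inside a peak under c-Fos shRNA was not computed. Nothing particular to the locus can therefore be read from the missing overlap. The site 37.6 kb upstream, bound in all 6 KCl lists, held no combined position. How the combined list was made is not stated in the sources used here, so this is a description of that list.

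With FosB shRNA, FosB peaks of the window were about as many as with control shRNA when single peaks were counted. Sample 5 had 8 against 10 and sample 6 had 6 against 5, a difference of -0.5 in the mean with opposite directions in the samples. By site, sample 5 had 6 against 10 and sample 6 had 5 against 5. Median peak widths of the lists were 221 against 767 bp in sample 5 and 234 against 254 bp in sample 6. In the FosB shRNA list of sample 5, the start site and the site 18.3 kb upstream were each split into separate peaks. With lists of equal length the difference was 2.5, and within 50 kb of the gene it was 0.5. It was -1.5 with scores of at least 100, -1.5 without peaks within 1 kb of the start site and -1.5 with peaks within 500 bp merged. Of the control peaks, 6 of 10 in sample 5 and 4 of 5 in sample 6 overlapped a peak under FosB shRNA (27.9% and 30.1% over the genome). No position of the 4 lay in a FosB peak of both control lists and of neither FosB shRNA list (0 of 4, against 7.57% of all positions). Per 10000 peaks of the list the values were 8.05 and 8.36 with FosB shRNA and 4.36 and 3.54 with control shRNA, so the shorter FosB shRNA lists held a larger share of peaks near Fos in both samples. The FosB peak 37.6 kb upstream scored 641 and 196 with FosB shRNA and 446 and 432 with control shRNA. Over the start site it scored 345 and 88.05 with FosB shRNA, and in sample 6, where the control list had none, it was listed under FosB shRNA alone. The peak near 14.2 kb downstream scored 305 and 120 with FosB shRNA. Whether the locus differed from the rest of the genome in this was not tested.

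The number of AP-1 peaks at Fos was set beside that in other stretches of the genome of the same length. The chromosomes were divided into windows of 203370 bp, and the 8946 windows that held the centre of at least 1 H3K27ac peak were counted as a description of the background. The median number per window was 0 to 2 in the KCl c-Fos lists. At least as many c-Fos peaks as at Fos were found in 0.324% and 1.32% of windows with sc52 of samples 3 and 4, in 0.850% and 0.525% with sc7202, and in 0.190% and 14.7% with control shRNA of samples 5 and 6. Sample 6 was thus the exception, with 4 peaks at Fos. For JunB after KCl the share was 0.794%. The FosB lists after KCl gave 3.11% and 2.38% in samples 3 and 4, and those of samples 5 and 6 gave 0.604% and 3.74% with control shRNA and 0.190% and 0.212% with FosB shRNA. For c-Fos with c-Fos shRNA the shares were 4.37% in sample 5 and 100% in sample 6, which had no peak at Fos. In the unstimulated lists they were 13.9% to 100%. By number of H3K27ac peaks the locus stood out less, with 19.0% of windows holding as many without stimulation and 8.51% after KCl. For the CBP and H3K4me1 positions the share was 10.2%.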

How the data were processed

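The peak lists are used in their deposited form. BWA and build mm9 are named in the submitters' processing notes. The names of the deposited peaks begin with MACS; the version and control library are not stated in the sources used here. The authors' peak score is on the scale of 10 times the negative log10 of the p-value, with 50 as the lowest score. AP-1 lists were called on 1 library each and H3K27ac lists on samples 1 and 2 merged. The deposited lists of positions give a base without width. The depth is unknown because the lists hold no reads. The 12 input libraries were not analysed here.

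The window comes from the rule for the locus. A peak was counted when it shared at least 1 bp with it, and starts were converted to count from 1. Groups and biological sample numbers come from the labels. The replicate block pairs libraries of 1 biological sample and antibody. Numbers per library were compared with exact permutation tests for c-Fos (family of 2, Benjamini-Hochberg), and other groups are too small. All peaks were members, and sites in at least 2 libraries were named. Members and lists were chosen with earlier results of these data known. Simulated peaks were placed on 2047 of 11830 positions to test the overlap step, which found 100% of them and called 0% of the rest. The alternatives were a score of at least 100, 50 kb flanks, peaks within 1 kb of the start site left out, lists of equal length, peaks within 500 bp merged, shares of the list, peak centres, other distances to a position, single antibodies, each sample left out and the block. Python 3.11.15, numpy 2.4.6, scipy 1.17.1 and matplotlib 3.10.9 were used.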

Additional observations from a re-analysis of the deposited data

Results flagged for a closer look

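Among the 4 unstimulated c-Fos libraries, the sc7202 library of biological sample 3 stood apart with 1 peak in the Fos window, while the other libraries had 0. Among the 4 KCl c-Fos libraries, the sc52 library of biological sample 4 stood apart with 1 of the 4 CBP and H3K4me1 positions inside a peak, while the others had 4. Its list held 6808 peaks, against 16270 to 28885 in the others. About 1 in 20 groups is expected to show such a sample by chance, and values that can take few whole numbers do so readily.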

How the results depend on the processing

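In each of 71 recomputed values but 4 the direction was kept or the difference was 0. The c-Fos difference of 8.25 peaks stayed past 0.05 under 4 alternatives. It was 4.25 with scores of at least 100 (exact permutation p = 0.143), 0.5 with lists of equal length, 3.47 per 10000 peaks and 8.25 with the replicate block (exact sign-flip p = 0.125). It was 7.5 with sc52 alone, 9 with sc7202 alone, 6 to 10.5 with a biological sample left out, and, in alternatives chosen after seeing the data, 8.33 without the sc7202 pair of sample 4 and 8.25 over means per sample. These designs of 2 or 3 against as many cannot pass 0.05. The difference of 3.25 covered positions was 2.25 with scores of at least 100 (exact permutation p = 0.143), 0.25 with equal lists, 3.25 with the replicate block, 2.5 and 4 with sc52 and sc7202 alone, 2.5 to 4 with a sample left out, 3 without the sc7202 pair and 3.25 over means per sample. The FosB difference of 3 was 2 within 50 kb, 1.72 per 10000 peaks and 2 to 4 with a sample left out. The JunB difference of 8 was 3 with scores of at least 100, 5 within 50 kb, 2 with equal lists and 4.14 per 10000 peaks. Under c-Fos shRNA the difference of -6 was -2 with scores of at least 100, -4 within 50 kb, -0.5 with equal lists, -1.03 per 10000 peaks and -8 to -4 with a sample left out. Under FosB shRNA the difference of -0.5 turned to 0.5 within 50 kb, 2.5 with equal lists and 4.25 per 10000 peaks. It was -1.5 with scores of at least 100, -1.5 without peaks within 1 kb of the start site and -1.5 with peaks within 500 bp merged. With a sample left out it ran from -2 to 1. The cause of these shifts was not tested. For H3K27ac, the 2 added peaks became 1 with scores of at least 100 and 0 within 50 kb, and the 9007 bp of added cover became 6407 in the distal lists, 7467 with scores of at least 100 and 5554 within 50 kb. The replicate block and the means per sample repeat each main difference by construction, so they could not change a direction, though they are among the 71 values. Depth is unknown, so a peak that is not listed may be below the threshold of a shallow library.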

Other observations

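Of the 13 AP-1 sites, 3 were listed in a single library. The site 1.70 kb downstream of the start site was listed for c-Fos with control shRNA of biological sample 5 (score 53.3), and the site 2.67 kb downstream for FosB with control shRNA of the same sample (score 103). Both lie inside the gene, in the part that H3K27ac covered after KCl and not without stimulation. The site 102 kb downstream was listed for JunB after KCl (score 66.1), outside H3K27ac.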
